A study of Homo sapiens with 33 samples.

Results

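The Hippo effectors and YAP target genes described here are 10 genes, ANKRD1, CTGF, CYR61, AMOTL2, AJUBA, YAP1, WWTR1, TEAD1, TEAD4 and FAT1, taken by symbol from the 29744 genes of the deposited tables. CTGF and CYR61 are the older symbols of CCN2 and CCN1, and each of the 10 symbols matched 1 row. The set was chosen by measured values: ANKRD1 was taken because it changed in each resistant-sensitive pair with mixed sign, and FAT1 because its transcript was lost in PEA2. The values of ANKRD1 in all comparisons and of FAT1 in PEA2 are therefore given as a description, with no test.

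RNA from 11 high-grade serous ovarian cancer (HGSOC) cell lines was sequenced, with 3 replicate libraries per line. The study grouped 4 lines as platinum sensitive (OVCAR3, OVCAR4, PEA1 and PEO1) and 7 as their resistant counterparts. OVCAR3 ResA, OVCAR3 ResB, OVCAR4 ResA and OVCAR4 ResB were grown out of OVCAR3 and OVCAR4 after repeated pulses of cisplatin at rising dose, as independently selected lines that were not kept in drug. PEA2 was derived from the same patient as PEA1, and PEO4 and PEO6 from the same patient as PEO1, so these lines differ in time of sampling and in culture history as well as in platinum response. Each group is 1 line, and the 3 libraries of a line show how libraries of that line varied, not how resistant lines vary. In bulk RNA a smaller share of expressing cells and less RNA per cell cannot be told apart.

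The Hippo pathway is a kinase cascade that restrains growth when cells are crowded or lie on a soft matrix. The MST kinases and SAV1 activate the LATS kinases with their MOB1 cofactors, LATS phosphorylates the coactivators YAP1 and TAZ (encoded by WWTR1), and the phosphorylated coactivators are held in the cytoplasm or degraded. When the cascade is off, YAP1 and TAZ enter the nucleus, bind the TEAD transcription factors and drive targets such as CTGF, CYR61, ANKRD1, AMOTL2 and AJUBA. FAT1, a giant protocadherin, promotes Hippo signalling at the cell surface, while AMOTL2 binds YAP1 and AJUBA inhibits LATS, so both of these targets also feed back on the pathway. YAP1 is regulated mainly by phosphorylation and localisation, which RNA levels do not report.

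The members lie on separate loci of GRCh38.p14 (RefSeq): ANKRD1 at chr10:90912096-90921087, CTGF at chr6:131948176-131951372, CYR61 at chr1:85580761-85583950, AMOTL2 at chr3:134355345-134375417, AJUBA at chr14:22971177-22982551, YAP1 at chr11:102110447-102233424, WWTR1 at chr3:149517235-149724788, TEAD1 at chr11:12674421-12944737, TEAD4 at chr12:2959397-3040676 and FAT1 at chr4:186587794-186726696. RefSeq promoter windows matched 7 of the 10 members. The 250 bases before the transcription start of ANKRD1 and of CTGF are printed because both are classical TEAD targets whose transcripts moved in opposite directions in PEA2. The sequences run 5′ to 3′ along the gene (minus strand, chr10:90921088-90921337 and chr6:131951373-131951622), with the TEAD motif GGAATG in capitals; the motif was searched on both strands.
ANKRD1: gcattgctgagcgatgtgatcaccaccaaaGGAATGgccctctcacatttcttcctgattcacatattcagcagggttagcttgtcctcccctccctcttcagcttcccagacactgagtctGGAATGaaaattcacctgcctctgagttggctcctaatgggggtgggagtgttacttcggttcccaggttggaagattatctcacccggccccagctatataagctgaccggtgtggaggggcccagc
CTGF: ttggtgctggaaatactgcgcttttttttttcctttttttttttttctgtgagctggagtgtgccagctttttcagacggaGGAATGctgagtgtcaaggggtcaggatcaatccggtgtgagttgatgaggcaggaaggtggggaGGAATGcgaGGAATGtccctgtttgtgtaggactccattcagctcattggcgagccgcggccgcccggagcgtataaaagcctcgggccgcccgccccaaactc
The ANKRD1 window held 2 matches, starting 220 and 128 bases before the start. The CTGF window held 3, starting 169, 104 and 95 bases before it. Of 35116 RefSeq promoter windows of the same length, 11.9% held at least 1 match, 0.94% at least 2 and 0.0826% at least 3. The YAP1 window and 1 of the 2 windows each of AMOTL2 and AJUBA held 1 match, and those of WWTR1 and FAT1 held none.

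The libraries held 18058985 to 43394009 counts, and each of the 33 libraries was nearest to a library of its own line. Of 9 epithelial and serous markers, at least 8 had a mean of 1 TPM or more (TPM is a transcript level corrected for gene length and depth) in each line but PEA1, where 7 did. Their summed level was 429 TPM in PEA1 and 2800 to 7110 TPM in the other 10 lines. The 9 leukocyte, endothelial and fibroblast markers together summed to 0.595 to 19.3 TPM per line, and CD3E was at 0 in 9 of the 11 lines. The summed level was highest in OVCAR4 ResA, from LUM, and next in PEA2, mainly from CDH5, PTPRC and CD14, and in OVCAR3 ResB, mainly from PECAM1.

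**Figure D1:**
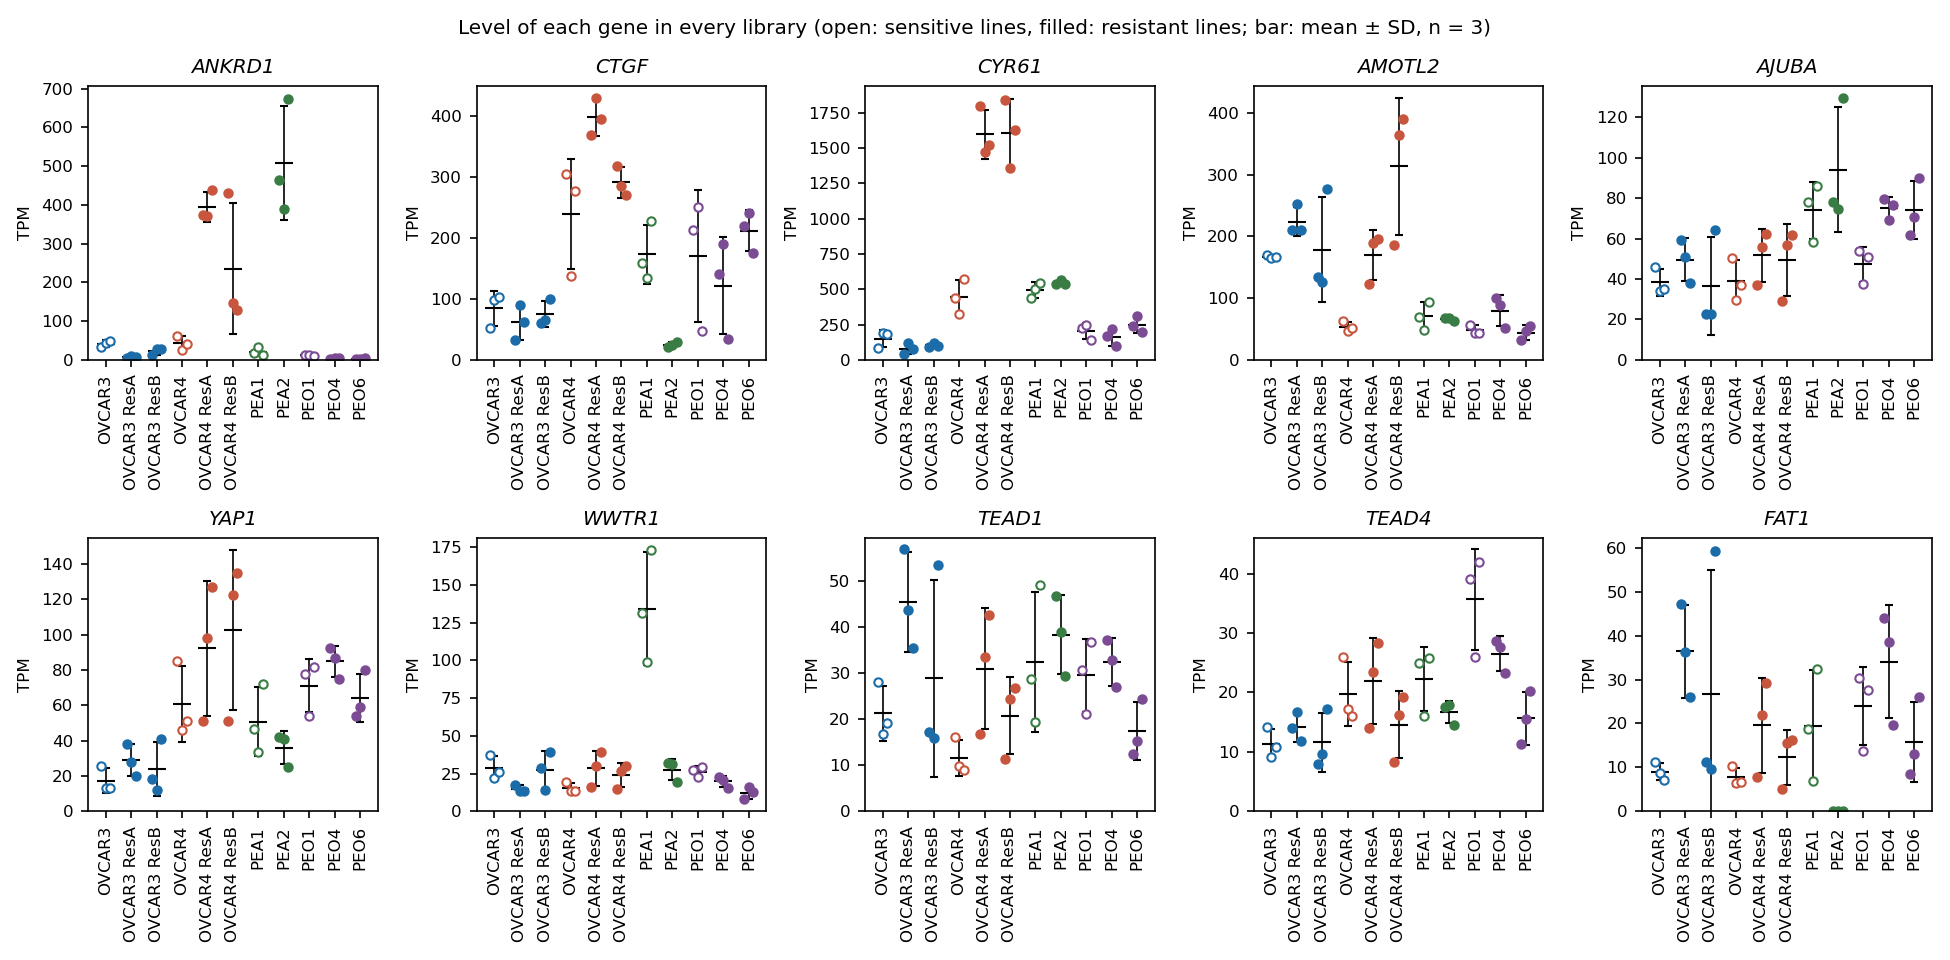
TPM (y axis, linear, from 0) of the 10 genes in each of the 33 libraries, by line (x axis). Points are libraries, open for sensitive and filled for resistant lines, with the mean and SD of 3 libraries (an SD bar that would pass below 0 is cut at the axis). ANKRD1 is high in PEA2 and the OVCAR4 resistant lines, WWTR1 in PEA1, and FAT1 is at 0 in the 3 PEA2 libraries.

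Among the 9 members with counts in each of the 11 lines, ANKRD1 had the widest range of line means, from a mean of 3.42 TPM in PEO6 to 509 TPM in PEA2, a 149-fold span. CYR61 spanned 20.3-fold, from 79.4 TPM in OVCAR3 ResA to 1608 TPM in OVCAR4 ResB, and CTGF 15.8-fold, from 25.2 TPM in PEA2 to 398 TPM in OVCAR4 ResA. WWTR1 spanned 11-fold, from 12.2 TPM in PEO6 to 134 TPM in PEA1, and reached at most 28.6 TPM in the other 10 lines. The remaining spans were 7.11-fold for AMOTL2, 5.91-fold for YAP1, 3.9-fold for TEAD1, 3.15-fold for TEAD4 and 2.57-fold for AJUBA. FAT1 ran from 0 in PEA2 to 36.4 TPM in OVCAR3 ResA, so no finite span could be given. When lines were ranked by mean level, neighbours in the order mostly overlapped in their single libraries: all 10 neighbouring pairs overlapped for AJUBA, YAP1, TEAD1 and TEAD4. For WWTR1 the only gap lay below PEA1, for FAT1 above PEA2, and for AMOTL2 between OVCAR3 and PEO4. ANKRD1 had 3 gaps, below OVCAR4 ResB, below OVCAR3 and below PEO1. CTGF had 2, below OVCAR4 ResA and above PEA2, and so did CYR61, below OVCAR4 ResA and below OVCAR4.

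Each resistant line was compared with its sensitive counterpart by DESeq2 with replicate as a block, and a gene was called at a Benjamini-Hochberg adjusted p under 0.05 over all genes tested. In OVCAR3 ResA, 7 of the 9 members open to a test were called, against 44.9% of all genes: AMOTL2, YAP1, TEAD1 and FAT1 were higher and CTGF, CYR61 and WWTR1 lower. Without the replicate block the count was 4. In OVCAR3 ResB, none of 9 was called against 7.67% of all genes (1 had an unadjusted p below 0.05, and edgeR called 0). In OVCAR4 ResA, 2 of 9 were called, CYR61 and AMOTL2, both higher, against 11.9% of all genes. In OVCAR4 ResB, 3 of 9 were called, CYR61 and AMOTL2 higher and TEAD4 lower, against 17.9%. In PEA2, 2 of 8 were called, CTGF and WWTR1, both lower, against 47.0%. In PEO4, 3 of 9 were called, AMOTL2 and AJUBA higher and CTGF lower, against 33.3%, and in PEO6, 5 of 9, AJUBA higher and WWTR1, TEAD1, TEAD4 and FAT1 lower, against 41.4%. The share called was thus above that of all genes in OVCAR3 ResA, both OVCAR4 lines and PEO6, equal to it in PEO4 and below it in PEA2 and OVCAR3 ResB, at a resolution of 1 gene in 8 or 9. OVCAR3, OVCAR4 and PEO1 each serve as reference in 2 pairs, so those pairs are not independent.

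The OVCAR4 counts depended on which libraries were used. Without replicate 1, 6 of 9 members were called in each OVCAR4 pair. Without replicate 2, 0 were called in OVCAR4 ResA and 1 in OVCAR4 ResB, and without replicate 3, 1 in each. In OVCAR4 the mitochondrial rRNA genes RNR1 and RNR2 took 5.18%, 14.8% and 12% of counts in replicates 1, 2 and 3. In OVCAR4 ResA they took 9.23%, 2.02% and 2.09%, and in OVCAR4 ResB 13.1%, 2.47% and 2.39%. The parent was thus low in the replicate in which both resistant lines were high, and the part of this in the calls was not tested.

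**Figure D2:**
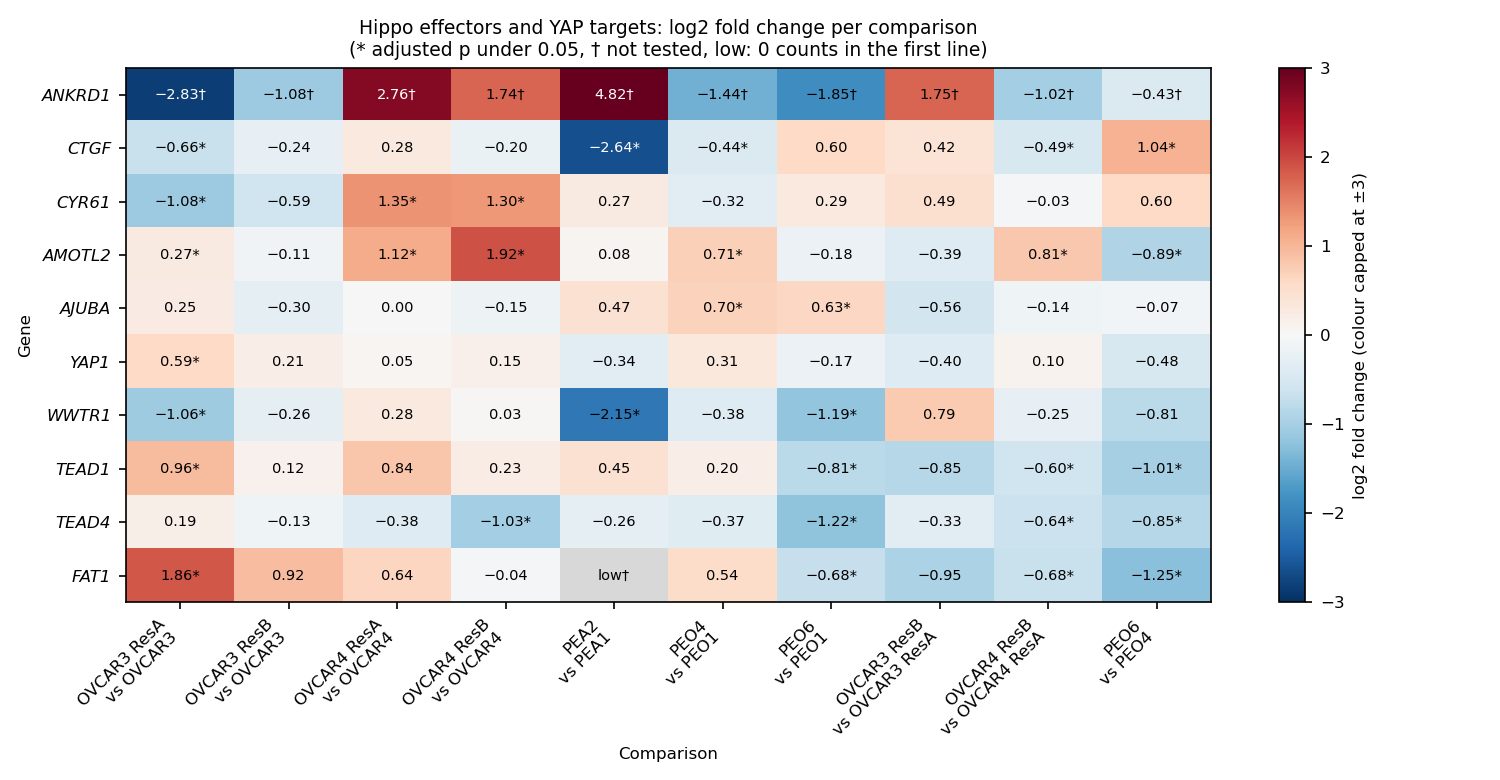
Log2 fold change (colour, capped at ±3, value printed) of the 10 genes (rows) in the 7 resistant-sensitive pairs and the 3 comparisons between resistant lines (columns). An asterisk marks an adjusted p under 0.05 and a dagger a value used to choose the genes and not tested; FAT1 had 0 counts in PEA2. No row has 1 direction in each pair.

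ANKRD1 encodes a nuclear ankyrin-repeat cofactor first known from stressed heart muscle and widely used as a YAP readout. It was lower in the resistant line of 4 pairs and higher in 3. In OVCAR3 the 3 libraries had 33.7, 43.3 and 49.3 TPM, in OVCAR3 ResA 4.69, 9.29 and 6.12 TPM, and in OVCAR3 ResB 12.5, 27.7 and 27.4 TPM. The fold change was 7.11-fold lower in OVCAR3 ResA and 2.12-fold lower in OVCAR3 ResB. OVCAR4 went the other way, with 62.2, 26.2 and 40.5 TPM in the parent and 374, 370.5 and 438 TPM in OVCAR4 ResA. OVCAR4 ResB had 431, 148 and 128 TPM, so replicate 1 lay within the range of OVCAR4 ResA and the other two well below it. On normalised counts these changes were 6.75-fold and 3.34-fold higher.

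The widest change of ANKRD1 was in the PEA lines. PEA1 had 16.9, 34.2 and 12.1 TPM and PEA2 465, 389 and 673 TPM, and the fitted change was 28.2-fold higher. In PEO1 the level was already low, at 11.4, 13.2 and 10.4 TPM, and it fell further to 2.58, 4.802 and 5.65 TPM in PEO4 and 3.34, 2.01 and 4.91 TPM in PEO6. The TPM values of the resistant and the sensitive line did not overlap in any of the 7 pairs. On normalised counts OVCAR3 ResB overlapped its parent.

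CTGF encodes a secreted matricellular protein that promotes fibroblast and matrix responses. It was called lower in 3 pairs and higher in none of the 7 tested. PEA1 had 159, 134 and 227 TPM and PEA2 21.0, 25.1 and 29.6 TPM, with no overlap and a 6.22-fold fall (log2 fold change −2.64 ± 0.22 SE, adjusted p = 9.73e-32). That call was made in 11 of 11 alternative fits. In OVCAR3 ResA the fall was 1.59-fold (−0.67 ± 0.13, adjusted p = 9.23e-07), although the libraries overlapped, at 52.1, 98.5 and 103 TPM in the parent and 31.8, 90.7 and 61.7 TPM in the resistant line. Without the replicate block its adjusted p was 0.292.

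In the PEO lines, replicate 3 of CTGF stood apart in both PEO1 and PEO4. PEO1 had 214, 251 and 46.6 TPM, PEO4 141, 190 and 34.7 TPM, and PEO6 220, 241 and 175 TPM. The fall in PEO4 was 1.36-fold (−0.44 ± 0.17, adjusted p = 0.0315), and it was called in 3 of 11 alternative fits: the adjusted p was 0.43 without replicate 1, 0.294 without replicate 2 and 1.09e-06 without replicate 3. In OVCAR4 (306, 137 and 277 TPM), OVCAR4 ResA (369, 429 and 396 TPM) and OVCAR4 ResB (319, 285 and 270 TPM), the log2 fold changes of 0.28 ± 0.33 and −0.20 ± 0.34 were not called.

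CYR61, a secreted integrin ligand of the same protein family as CTGF, was called higher in both OVCAR4 resistant lines. OVCAR4 had 440.4, 328 and 570 TPM, OVCAR4 ResA 1795, 1473 and 1524 TPM and OVCAR4 ResB 1837, 1358 and 1631 TPM. The lowest resistant library was thus above the highest parental one, by normalised counts as well. The changes were 2.54-fold (1.35 ± 0.35, adjusted p = 0.00265) and 2.47-fold (1.30 ± 0.37, adjusted p = 0.0043). Without replicate 2 the adjusted p was 0.186 for OVCAR4 ResA and 0.109 for OVCAR4 ResB, and without replicate 3 it was 0.0553 for OVCAR4 ResB. By edgeR the adjusted p was 0.114 for OVCAR4 ResA and 0.0773 for OVCAR4 ResB. The 2 calls were made in 6 and 7 of 11 alternatives. On the TPM scale the rises were larger, at 1.87 in both, and on that scale the median gene also rose, by 0.44 in OVCAR4 ResA and 0.48 in OVCAR4 ResB.

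In OVCAR3 ResA, CYR61 was 2.12-fold lower (−1.08 ± 0.12, adjusted p = 2.89e-19), from 82.5, 188 and 183 TPM in the parent to 44.4, 116 and 77.8 TPM. The libraries overlapped between the lines, but within each replicate the resistant line was lower, and the call was made in 11 of 11 alternatives. PEA1 (439, 499 and 546 TPM) and PEA2 (538, 565 and 536 TPM) did not differ detectably, with a log2 fold change of 0.27 ± 0.22 and an adjusted p of 0.312. CYR61 was not called in OVCAR3 ResB, PEO4 or PEO6, with log2 fold changes of −0.59 ± 0.38, −0.32 ± 0.16 and 0.29 ± 0.21.

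The 3 most used YAP readouts parted in PEA2, where CTGF was down and CYR61 near its level in PEA1. ANKRD1 was up there, but its values chose the set and were not tested. Ratios within a library do not depend on its scaling. ANKRD1 over CTGF was 0.0534 to 0.255 in PEA1 and 15.5 to 22.8 in PEA2, and at most 1.35 in each of the other lines. CYR61 over CTGF was 2.40 to 3.72 in PEA1 and 18.1 to 25.6 in PEA2, and rose from 1.44 to 2.39 in OVCAR4 to 3.43 to 4.86 in OVCAR4 ResA and 4.76 to 6.03 in OVCAR4 ResB. In PEO6 the same ratio was 1.08 to 1.29, within the 0.977 to 2.98 of PEO1. Beside the PEA changes, the summed epithelial and serous markers rose from 405 to 448 TPM in the PEA1 libraries to 4240 to 4530 TPM in the PEA2 libraries. CDH5 was at 0 and PTPRC at 0 in PEA1, and they reached 7.02 and 3.30 TPM in PEA2. Their part in the results was not tested.

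**Figure D3:**
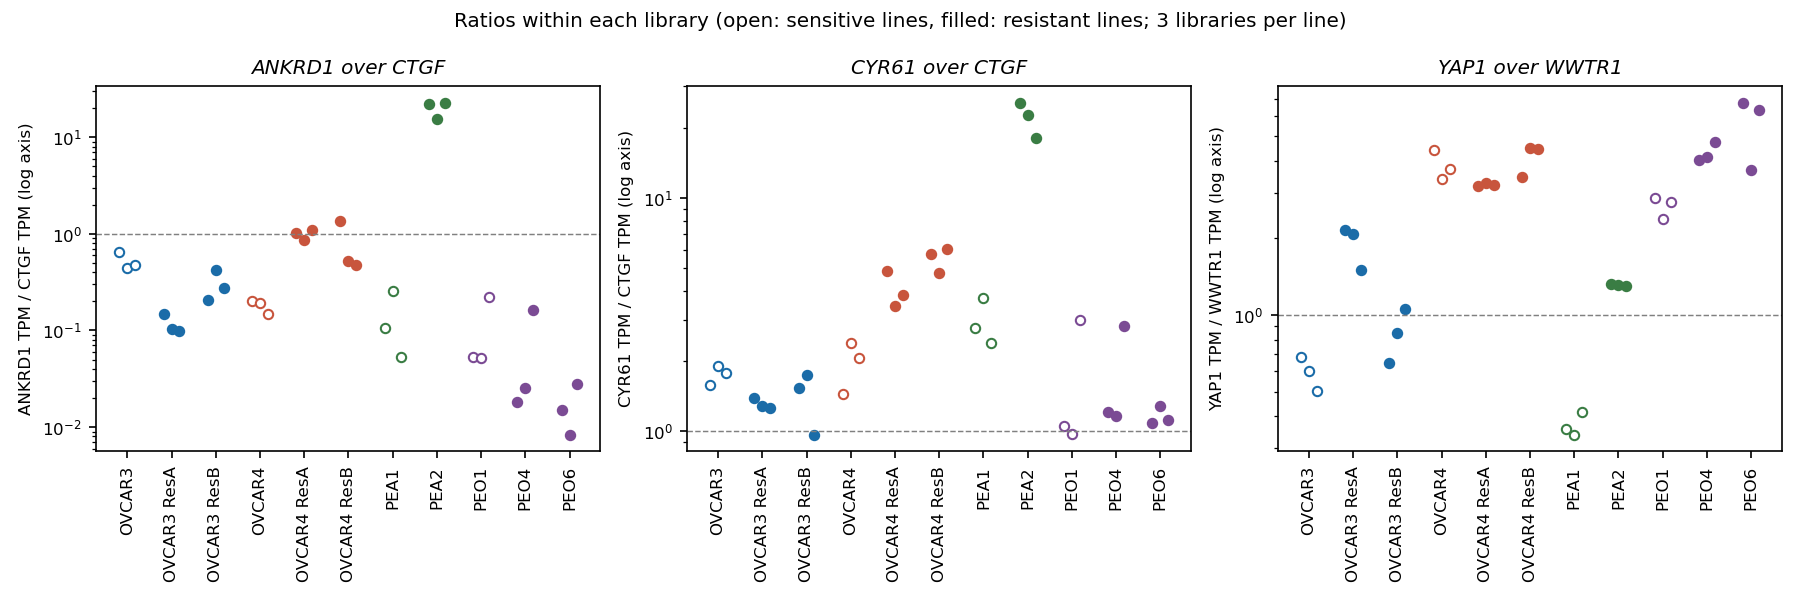
Ratio of TPM values within each of the 33 libraries (y axes, log scale), by line (x axis), for ANKRD1 over CTGF, CYR61 over CTGF and YAP1 over WWTR1. The dashed line marks a ratio of 1, open points are sensitive and filled points resistant lines. PEA2 stands apart from the other lines in the first 2 panels, and PEA1 and OVCAR3 lie below 1 in the third.

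AMOTL2, an angiomotin that binds YAP1 at junctions and actin, was called higher in 4 of 7 pairs and lower in none. OVCAR4 had 62.7, 46.8 and 51.4 TPM, OVCAR4 ResA 123, 190 and 195 TPM and OVCAR4 ResB 186, 364 and 390 TPM, all resistant libraries lying above the parental ones. The changes were 2.17-fold (1.12 ± 0.28, adjusted p = 0.00196) and 3.78-fold (1.92 ± 0.30, adjusted p = 1.53e-08). The first had an adjusted p of 0.336 without replicate 2 and 0.454 without replicate 3, and it was called in 5 of 11 alternatives. The second stayed below the threshold with each replicate left out in turn (highest adjusted p = 0.0144). It was called in 8 of 11 alternatives, with an adjusted p of 0.0531 by limma on log2(TPM + 1).

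In PEO4, AMOTL2 was 1.64-fold higher than in PEO1 (0.71 ± 0.17, adjusted p = 0.000166), with 99.4, 88.4 and 51.2 TPM against 57.1, 43.5 and 44.2 TPM, and the adjusted p was 0.0837 without replicate 1. In OVCAR3 ResA the rise was 1.21-fold (0.27 ± 0.10, adjusted p = 0.0119) and was lost without each replicate in turn, at 0.078, 0.128 and 0.0734. The parent was tightly grouped at 170, 166 and 167 TPM and OVCAR3 ResA had 211, 252 and 210 TPM. On normalised counts these lines overlapped, and on the TPM scale the median gene also rose in this pair, by 0.14. No change was detected in PEA2 (0.08 ± 0.23), PEO6 (−0.18 ± 0.24) or OVCAR3 ResB (−0.11 ± 0.31).

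AJUBA, a LIM-domain scaffold of adherens junctions, was called higher in PEO4 and PEO6. PEO1 had 53.6, 37.3 and 51.0 TPM, PEO4 79.5, 69.1 and 76.5 TPM and PEO6 61.9, 70.5 and 90.1 TPM, with no overlap with PEO1. The rises were 1.62-fold (0.70 ± 0.16, adjusted p = 0.000131) and 1.54-fold (0.63 ± 0.22, adjusted p = 0.0151). The first was called in 11 of 11 alternatives, while the second had an adjusted p of 0.175 without replicate 2 and 0.184 without replicate 3. In the other 5 pairs its log2 fold change lay between −0.30 and 0.47.

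YAP1 was called in a single pair, OVCAR3 ResA, where it was 1.51-fold higher (0.59 ± 0.12, adjusted p = 7.25e-06), with 25.7, 13.2 and 13.3 TPM in OVCAR3 and 38.2, 28.2 and 20.1 TPM in OVCAR3 ResA. The lines overlapped, the resistant line was higher in 3 of 3 replicate pairs, and the adjusted p was 0.114 without the replicate block. In the other 6 pairs the log2 fold change of YAP1 lay between −0.34 and 0.31. Its level was 12 to 41.2 TPM in the OVCAR3 family and 25.2 to 135 TPM elsewhere.

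WWTR1, the gene of TAZ, was called lower in 3 pairs and higher in none. PEA1 had 131, 98.7 and 173 TPM, above all libraries of the other lines, and PEA2 31.8, 31.4 and 19.5 TPM, a 4.43-fold fall (−2.15 ± 0.26, adjusted p = 1.33e-15). OVCAR3 had 37.6, 21.9 and 26.3 TPM and OVCAR3 ResA 17.8, 13.6 and 13.4 TPM, a 2.08-fold fall (−1.06 ± 0.12, adjusted p = 1.63e-18). Both calls were made in 11 of 11 alternatives. In PEO6 (7.92, 16.1 and 12.5 TPM, against 27.2, 22.6 and 29.4 TPM in PEO1) the fall was 2.28-fold (−1.19 ± 0.25, adjusted p = 1.07e-05), called in 10 of 11.

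The balance of the 2 coactivator transcripts is given as a ratio within each library, as a description. YAP1 over WWTR1 was 0.339 to 0.415 in PEA1 and 0.505 to 0.683 in OVCAR3, so WWTR1 was the more abundant transcript in these sensitive lines. It was 1.30 to 1.32 in PEA2 and 1.5 to 2.15 in OVCAR3 ResA, where YAP1 was the more abundant, and 0.645 to 1.05 in OVCAR3 ResB. In OVCAR4 (3.41 to 4.41), OVCAR4 ResA (3.21 to 3.28) and OVCAR4 ResB (3.47 to 4.52) the ranges were close. In PEO1 (2.38 to 2.86), PEO4 (4.03 to 4.77) and PEO6 (3.68 to 6.78) both resistant lines lay above the sensitive one.

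TEAD1 and TEAD4 encode DNA-binding partners of the coactivators. TEAD1 was called higher in OVCAR3 ResA, 1.94-fold (0.96 ± 0.11, adjusted p = 1.07e-16), with 28.0, 16.7 and 19.2 TPM in OVCAR3 and 56.9, 43.6 and 35.4 TPM in OVCAR3 ResA, and it was called in 11 of 11 alternatives. It was lower in PEO6, 1.75-fold (−0.81 ± 0.22, adjusted p = 0.00102), with 30.7, 21.1 and 36.6 TPM in PEO1 and 12.4, 15.3 and 24.4 TPM in PEO6. The PEO lines overlapped in TPM but not in normalised counts, and the call was made in 10 of 11 alternatives.

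TEAD4 was called lower in 2 pairs. PEO1 had 39.1, 25.9 and 41.9 TPM and PEO6 11.3, 15.5 and 20.2 TPM, a 2.32-fold fall with no overlap (−1.22 ± 0.25, adjusted p = 8.63e-06), called in 11 of 11 alternatives. In OVCAR4 ResB it was 2.04-fold lower than in OVCAR4 (−1.03 ± 0.37, adjusted p = 0.0353), with 8.29, 16.3 and 19.3 TPM against 25.9, 17.2 and 16.04 TPM. The TPM values overlapped, and the adjusted p was 0.378 without replicate 2 and 0.277 without replicate 3.

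FAT1 had 0 counts in the 3 PEA2 libraries, which held 33138595 to 43394009 counts each. PEA1 had 18.8, 6.88 and 32.5 TPM, from 2005 to 6780 counts. Against a floor of 3 counts per library the level in PEA2 was at least 1630-fold lower. The other FAT cadherins were also low in PEA2, at 0.639 TPM for FAT2, 0.176 for FAT3 and 0.101 for FAT4 against 6.77, 1.31 and 1.12 TPM in PEA1, and each of these falls was called. Such low levels were not particular to PEA2 for FAT3, at 0.207 TPM in OVCAR3 ResA, or FAT4, at 0.113 TPM in PEO4. The next lowest mean of FAT2 was 1.21 TPM, in PEO4. A table of gene counts does not show whether the FAT1 gene is present in PEA2.

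In OVCAR3 ResA, FAT1 was 3.62-fold higher than in OVCAR3 (1.86 ± 0.10, adjusted p = 3.73e-69), with 11.1, 8.73 and 7.20 TPM in the parent and 47.1, 36.2 and 26.0 TPM in the resistant line, and the call was made in 11 of 11 alternatives. OVCAR3 ResB had 11.2, 9.66 and 59.3 TPM, so replicate 3 lay above each OVCAR3 ResA library and the other two at the level of the parent. The change in that line was not called (0.92 ± 0.44, adjusted p = 0.261; 0.757 without replicate 3). In PEO6 (8.50, 13.04 and 26.0 TPM) FAT1 was 1.60-fold lower than in PEO1 (30.4, 13.8 and 27.6 TPM; −0.68 ± 0.29, adjusted p = 0.0417), and the adjusted p was 0.563 without replicate 1 and 0.0636 without replicate 2. In PEO4 (44.04, 38.6 and 19.6 TPM) it was not called (0.54 ± 0.24, adjusted p = 0.0667).

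OVCAR3 ResB replicate 3 stood apart for several members at once. Relative to the mean of replicates 1 and 2, its normalised counts were 3.82 times as high for FAT1, 2.15 for TEAD1, 2.14 for AJUBA, 1.83 for YAP1, 1.40 for AMOTL2, 1.29 for TEAD4 and 1.28 for WWTR1. For CTGF the ratio was 1.03, for ANKRD1 0.858 and for CYR61 0.60. Outside the members, NF2 was also highest in replicate 3 (62.6, 85.0 and 174.5 TPM in replicates 1, 2 and 3), while VGLL1 was not (18.2, 16.3 and 13.8 TPM). How many of all genes were shifted in this library was not determined, so the shift is not read as particular to the members. RNR1 and RNR2 took 1.12% of the counts of replicate 3, against 5.97% and 8.88% in the other 2 libraries. Without replicate 3, still no member was called against OVCAR3, and 5 of 9 were called between the 2 resistant lines, where the fit of all replicates called none.

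This pattern was not confined to one line. In deviations from the mean of each library's own line, on log2 normalised counts, Pearson's r with the share of RNR1 and RNR2 over the 33 libraries was −0.87 for YAP1, −0.80 for TEAD1, −0.79 for AJUBA, −0.63 for WWTR1, −0.61 for TEAD4 and −0.54 for AMOTL2. For FAT1 it was −0.84 over the 30 libraries outside PEA2. CYR61 and ANKRD1 went the other way, at 0.60 and 0.52, and CTGF was at 0.11. These values describe libraries made by the same protocol and scaled together, and the part of this composition in the comparisons was not tested. FAT1, TEAD1 and YAP1 moved together within lines, with r of 0.93 between FAT1 and TEAD1 and 0.86 between FAT1 and YAP1 over 30 libraries. No such r is given for genes outside the members, so nothing particular to the members is read from these values.

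**Figure D4:**
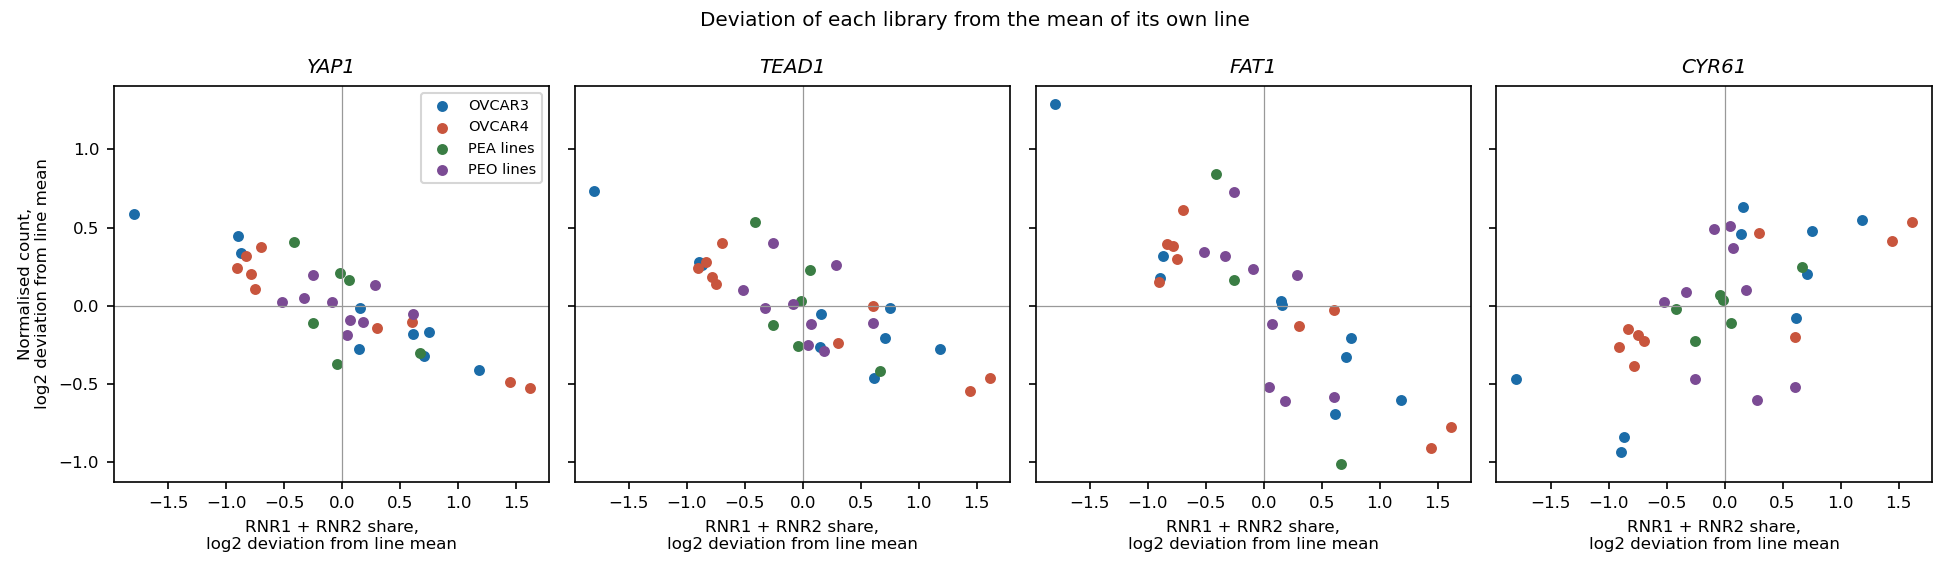
Log2 deviation of the normalised count of YAP1, TEAD1, FAT1 and CYR61 from the mean of its own line (y axis) against the log2 deviation of the RNR1 and RNR2 share of counts (x axis). Each point is 1 library, coloured by family; PEA2 is left out of the FAT1 panel. YAP1, TEAD1 and FAT1 fall from left to right, with r of −0.87, −0.80 and −0.84, and CYR61 rises, with r of 0.60.

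Resistant lines of the same origin also differed from each other. Between OVCAR4 ResB and OVCAR4 ResA, 5 of 9 members were called, against 32.8% of all genes. AMOTL2 was 1.75-fold higher in OVCAR4 ResB (0.81 ± 0.09, adjusted p = 3.08e-17), while CTGF (−0.49 ± 0.13), TEAD1 (−0.60 ± 0.10), TEAD4 (−0.64 ± 0.15) and FAT1 (−0.68 ± 0.12) were lower. AMOTL2 alone was called without the replicate block, where the count was 1. CTGF had an adjusted p of 0.173 and TEAD4 of 0.159 without replicate 2, and TEAD4 of 0.0687 without replicate 3. CYR61 was at one level in both lines, with a log2 fold change of −0.03 ± 0.10.

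Between PEO6 and PEO4, 5 of 9 members were called, against 18.2% of all genes: CTGF was higher (1.04 ± 0.35, adjusted p = 0.0201), and AMOTL2 (−0.89 ± 0.32), TEAD1 (−1.01 ± 0.30), TEAD4 (−0.85 ± 0.32) and FAT1 (−1.25 ± 0.39) were lower. None of the 5 was called without replicate 1 or without replicate 2, with adjusted p from 0.0697 to 0.549, and CTGF was at 0.0641 without replicate 3. Between OVCAR3 ResB and OVCAR3 ResA none of 9 was called, against 13.5% of all genes, although 3 had an unadjusted p below 0.05; edgeR called 0. ANKRD1, not tested, was 3.36-fold higher in OVCAR3 ResB.

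Taking the line as the unit, counts summed per line were fitted by DESeq2 with family as a covariate. Between the 7 resistant and the 4 sensitive lines, 0 of the 8 members open to a test were called. The standard errors of their log2 fold changes were 0.20 to 0.42, so small effects could go uncalled. All genes gave 68 calls, or 0.286%. No member had an unadjusted p below 0.05, and edgeR called 0. The nearest was WWTR1 (−0.74 ± 0.39, unadjusted p = 0.0569, adjusted p = 0.863). A likelihood ratio test asked instead whether 1 common resistant effect could describe the pairs. It was rejected for 6 of 8 members, CTGF, CYR61, AMOTL2, WWTR1, TEAD1 and TEAD4, against 70.2% of all genes. AJUBA (adjusted p = 0.106) and YAP1 (0.278) were not called.

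Over the 11 line means of log2(TPM + 1), the 45 pairs of members had a median Pearson r of 0.125, from −0.65 to 0.758. The highest was between ANKRD1 and CYR61, followed by CTGF and YAP1 at 0.72, YAP1 and TEAD4 at 0.654, and CYR61 and YAP1 at 0.648. The lowest was between ANKRD1 and FAT1, both chosen by their values, and it was −0.467 over the 10 lines without PEA2. ANKRD1 and CTGF had an r of 0.001, which was 0.579 over the same 10 lines. These are descriptions over lines of 4 families. Of 14207 genes with a mean of at least 1 TPM, those whose line means were most like ANKRD1 were TSPAN13 (r of 0.948), DRG1 (0.940) and FUT8 (0.938). For CYR61 they were LEPROT and PIGK (0.954 each) and PMEL (0.953), and for FAT1 they were RUSC1 (0.948), PMF1 (0.934) and MYL12B (0.924). With 11 points and this many genes, values of this size say little about any 1 gene.

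The pathway outside the members was read from 45 further genes. Of 18 other YAP targets, 11 were called lower and 0 higher in PEO4, 10 lower and 1 higher in PEO6, and 10 lower and 4 higher in PEA2, where 33.3%, 41.4% and 47.0% of all genes were called. The median log2 fold changes were −0.68, −0.998 and −0.94, beside 0.01, 0.02 and −0.02 for all genes. In PEO4 49.8% of all called genes were higher, in PEO6 51.1% and in PEA2 49.5%. In the cisplatin-selected lines, 9 were called higher and 8 lower in OVCAR3 ResA (median 0.28), 4 and 2 in OVCAR3 ResB (0.42), 5 and 1 in OVCAR4 ResA (0.53) and 3 and 2 in OVCAR4 ResB (−0.22). Of all called genes in these 4 pairs, 49.0%, 53.5%, 56.2% and 50.9% were higher, and 44.9%, 7.67%, 11.9% and 17.9% of all genes were called. A difference in direction between these pairs and the PEA and PEO pairs was not tested.

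Among these targets, AXL, a receptor tyrosine kinase, PTPN14, a phosphatase that binds YAP1, NUAK2, a stress-related kinase, and TGFB2, a growth factor, were each called lower in 4 of 7 pairs. TGFB2 was near the floor in PEO4, at 4 to 6 counts and 0.0666 TPM, and already low in PEO1, at 0.841 TPM. Its mean was higher in OVCAR4 ResA (4.43 TPM) and OVCAR4 ResB (2.78 TPM) than in OVCAR4 (1.66 TPM), where the median gene also rose on TPM. AXL was called higher in OVCAR3 ResA (1.96 ± 0.30), and it fell from a mean of 57.0 TPM in PEO1 to 21.9 TPM in PEO4 and 1.84 TPM in PEO6. Among pathway genes that averaged 100 or more normalised counts, TGFB2 had the largest fall in both OVCAR3 lines (−6.88 ± 0.25, adjusted p = 3.85e-159, and −1.71 ± 0.34, adjusted p = 2.43e-05), and DOCK5, a Rac exchange factor, the largest rise (5.78 ± 0.19 and 3.31 ± 0.41). In PEA2, F3, the gene of tissue factor, rose most (5.71 ± 0.32, from 8.40 to 371 TPM) and CCDC80, a matrix protein, fell most (−6.13 ± 0.26, from 109 to 1.51 TPM). FOXF2, a forkhead factor, had at most 2 counts in any PEO4 or PEO6 library and was at least 85.8-fold lower in PEO4 and 107-fold lower in PEO6 than in PEO1. MYOF, a membrane-repair ferlin, rose most in OVCAR4 ResB (1.56 ± 0.44, adjusted p = 0.00408), and AXL fell most in OVCAR4 ResA (−1.41 ± 0.45, adjusted p = 0.0204).

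**Figure D5:**
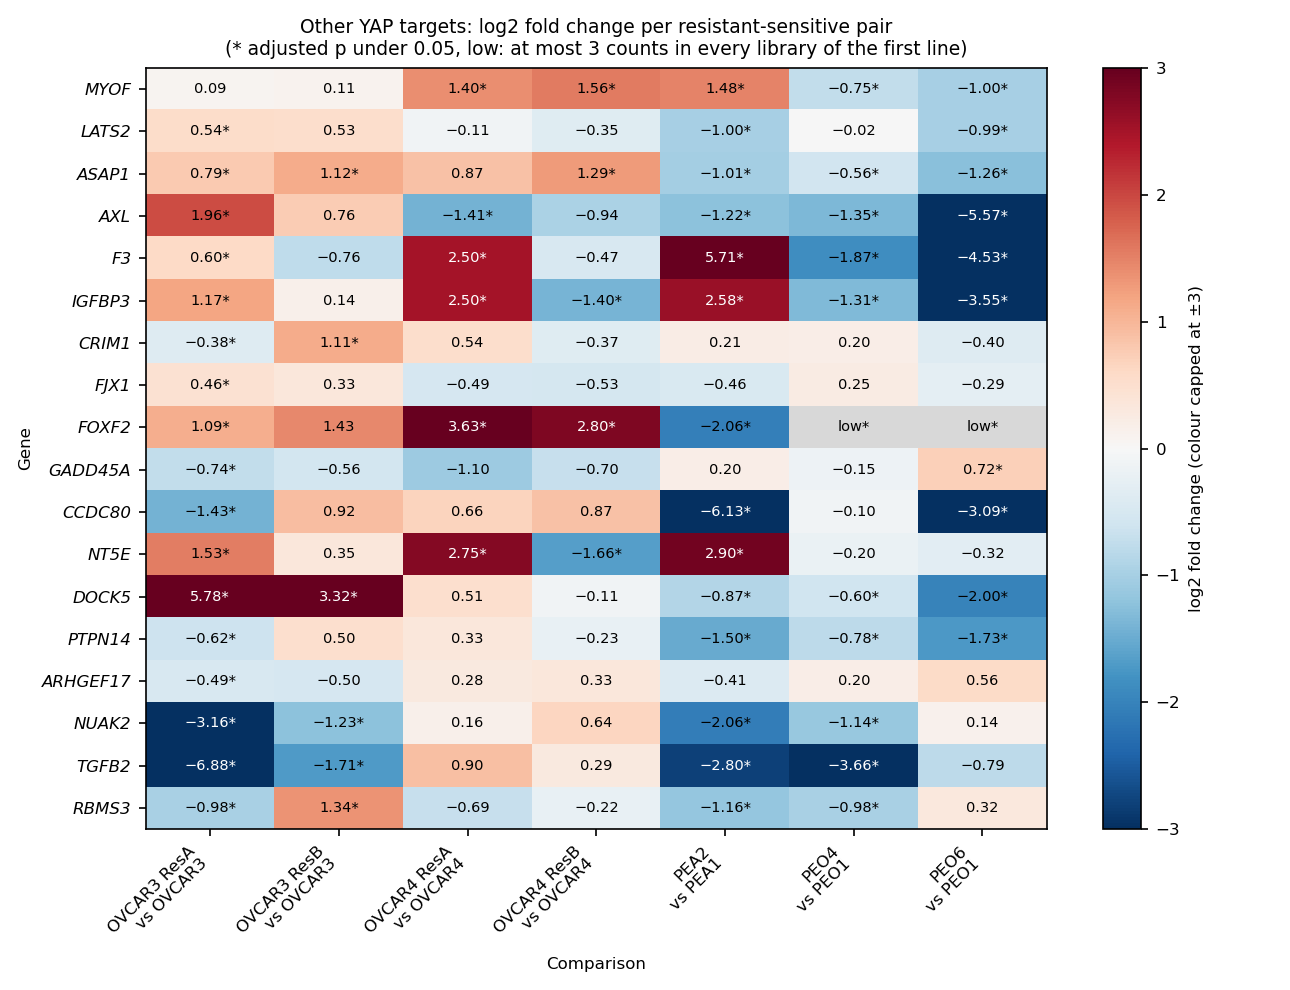
Log2 fold change (colour, capped at ±3, value printed) of 18 other YAP targets (rows) in the 7 resistant-sensitive pairs (columns), with an asterisk at an adjusted p under 0.05. Grey cells mark FOXF2 where the resistant line had at most 3 counts per library. In PEO4 each of the 11 called targets is lower, while the OVCAR3 and OVCAR4 columns hold both directions.

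Upstream and beside the coactivators, changes ran in both directions. Over the 7 pairs, the 10 genes of the kinase cascade gave 10 calls higher and 14 lower among 70 values, and the 6 scaffolds and inhibitors 11 higher and 5 lower among 42. The 5 FAT and DCHS cadherins gave 5 higher and 7 lower among 35, and the 6 TEAD factors and cofactors 8 higher and 9 lower among 42. With 7.67% to 47.0% of all genes called per pair, nothing particular to the lists is read from these counts. VGLL1, a cofactor that competes with YAP1 for TEAD, was called higher in 4 pairs, among them OVCAR4 ResA (4.24 ± 0.52, adjusted p = 8.98e-14, from 0.816 to 21.9 TPM). It had 0 counts in PEA1 and a mean of 0.704 TPM in PEA2, a rise known only as at least 4.68-fold. TEAD3 had the largest rise in PEO4 (1.62 ± 0.20, adjusted p = 3.96e-15). FAT4 had the largest rise in PEO6 (2.57 ± 0.41, adjusted p = 4.68e-09) and the largest fall in OVCAR4 ResB (−2.43 ± 0.44, adjusted p = 1.01e-06), at mean levels of 0.113 to 3.88 TPM outside PEA2.

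A pair of genes chosen after their values were seen marked the PEO family. NF2, the upstream activator of the cascade encoding merlin, had a mean of 0.0209 TPM in PEO1, 0 in PEO4 and 0.104 in PEO6, against 30.5 to 108 TPM in the other 8 lines. TEAD2, a further TEAD factor, had 1.51, 0.537 and 0.0735 TPM in PEO1, PEO4 and PEO6, against 19.1 to 109 TPM elsewhere. Both were low in the sensitive PEO1 as well as in the resistant lines.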

How the data were processed

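Per the labels and the methods of the study, total RNA of each culture was made into poly(A) libraries, and the libraries of 1 pool were sequenced over several runs, demultiplexed with DRAGEN tools and quantified against GRCh38 with salmon within nf-core/rnaseq. The authors deposited 2 merged gene tables, of estimated counts (expected counts, not all whole) and of TPM, in which levels are scaled to one common total per library. Mapping rates and annotation release are not given in the sources used here. The labels give the line and replicate number of each library, and the platinum response of the lines comes from the text of the study. Nothing says whether replicates are separate thaws or passages, so p-values measure only the spread between these libraries.

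Expected counts were rounded and tested over all genes with DESeq2 1.42.0 (Wald test, replicate number as a block as in the study, 6 libraries per comparison), and p-values were Benjamini-Hochberg adjusted. Fold changes are on normalised counts. Line means were fitted on counts summed per line with family as covariate, and common effects were tested by a likelihood ratio test. The alternatives were edgeR 4.0.16 quasi-likelihood, TMM size factors, a filter of at least 10 counts in 3 libraries, no replicate block, 1 fit of 33 libraries, limma 3.58.1 on log2(TPM + 1) with and without a filter on low values and on log2(TPM + 0.1), and leaving out each replicate. Same-numbered libraries deviated together (r above 0.1 for all 3 numbers) in 2 of the 10 comparisons, OVCAR3 ResA against OVCAR3 and OVCAR4 ResB against OVCAR4 ResA. The fits were tested on data simulated for OVCAR3 ResA against OVCAR3, with the same spread for all genes and no replicate effect. That test does not cover differences between libraries such as those in mitochondrial rRNA. Figures were drawn with matplotlib.

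The members and lists were chosen with earlier results of these data known. Outside the members, pathway genes were named when called in 1 direction in at least 4 of the 7 pairs, or with the largest rise or fall of a pair among genes averaging 100 or more normalised counts, and the 3 genes most like ANKRD1, CYR61 and FAT1 by Pearson r over line means. Bounds against a line at 0 use 3 counts per library and cover counting error only. Depth was 18058985 to 43394009 counts per library.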

Additional observations from a re-analysis of the deposited data

Results flagged for a closer look

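The effect of 6 members differed between the 7 resistant-sensitive pairs by a likelihood ratio test of 1 common resistant effect (DESeq2, 33 libraries, Benjamini-Hochberg adjusted over all genes). The adjusted p was 2.02e-17 for AMOTL2, which ranged from a log2 fold change of −0.18 to 1.92 over the pairs, and 5.09e-12 for WWTR1, from −2.15 to 0.28. It was 2.75e-06 for TEAD4 (−1.22 to 0.19), 8.04e-05 for TEAD1 (−0.81 to 0.96), 0.000221 for CYR61 (−1.08 to 1.35) and 0.001 for CTGF (−2.64 to 0.60). The test was also passed by 70.2% of all genes, so a difference between pairs was not particular to these members. TEAD1 had an adjusted p of up to 0.0927 over the alternatives, and for the other 5 genes the highest was 0.0358. ANKRD1 and FAT1 were not tested, since their differences between pairs chose them. Groups of 3 libraries were too small for a formal check of single outlying libraries, and each replicate was only left out in turn.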

How the results depend on the processing

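Of the 32 member calls in the 10 comparisons, none changed direction under any of the 11 alternatives and 9 passed the threshold in each: CYR61, WWTR1, TEAD1 and FAT1 in OVCAR3 ResA, CTGF and WWTR1 in PEA2, AJUBA in PEO4, TEAD4 in PEO6, and AMOTL2 between the OVCAR4 resistant lines. The causes of the changes given here were not tested. The number of members called in OVCAR3 ResA fell from 7 to 4 with all 33 libraries in 1 fit and to 4 with no replicate block. Between OVCAR4 ResB and ResA it fell from 5 to 2 and 1 under the same settings, and between OVCAR3 ResB and ResA it rose from 0 to 2 and 1. By edgeR and by the 3 limma fits it was 0 in OVCAR4 ResA and between PEO6 and PEO4, and in OVCAR4 ResB 1 by edgeR and by both limma fits with a filter and 0 by limma without one. Limma without a filter also gave 1 in PEO4 and 1 in PEO6. Leaving out 1 replicate gave 0 to 6 in OVCAR4 ResA, 1 to 6 in OVCAR4 ResB, 1 to 7 in PEO4, 0 to 5 between the OVCAR3 resistant lines, 3 to 6 between the OVCAR4 resistant lines and 0 to 6 between PEO6 and PEO4. Without replicate 3, 7 of 9 members were called in PEO4.

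Genes called over all alternatives ranged from 0 to 6221 in OVCAR4 ResA (1784 in the report), 0 to 7241 in OVCAR4 ResB (2853), 2 to 3056 in OVCAR3 ResB (1255), 4920 to 9165 in OVCAR3 ResA (8146), 4283 to 9174 in PEA2 (8088), 2921 to 6200 in PEO4 (5820), 3712 to 7285 in PEO6 (6962), 6 to 5042 between the OVCAR3 (2202), 1847 to 5838 between the OVCAR4 (5218) and 273 to 5223 between the PEO resistant lines (3043), and 0 to 199 by line (68). On TPM the higher share of calls moved from 49.0% to 63.7% in OVCAR3 ResA, 56.2% to 69.1% in OVCAR4 ResA and 50.9% to 66.7% in OVCAR4 ResB. The median log2 fold change of all genes on TPM was 0.14 for OVCAR3 ResA, 0.12 for OVCAR3 ResB and −0.10 for PEA2.

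Direction changed for 23 values that had not been called. In OVCAR4 ResA, AJUBA was at 0.0033 with TMM size factors, 0.024 with all libraries, 0.0076 with no replicate block, and 0.41, 0.40 and 0.40 by limma; TEAD4 was at 0.13, 0.12 and 0.12 by limma. In OVCAR4 ResB, limma gave 0.36, 0.36 and 0.36 for CTGF, 0.29, 0.29 and 0.29 for AJUBA and 0.51, 0.47 and 0.47 for FAT1, which was at 0.010 with all libraries and 0.045 with no replicate block. Limma gave −0.054 in 3 fits for AMOTL2 in PEA2, and 0.0043 in 3 fits for CYR61 between the OVCAR4 resistant lines. By line, CYR61 was at −0.23 without the OVCAR4 family and YAP1 at −0.013 without the OVCAR3 family.

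Leaving out 1 replicate gave these ranges. In OVCAR3 ResA, TEAD4 spanned −0.048 to 0.33. In OVCAR3 ResB, AJUBA spanned −0.72 to 0.092, YAP1 −0.20 to 0.55, TEAD1 −0.29 to 0.52 and TEAD4 −0.33 to 0.21. In OVCAR4 ResA, CTGF spanned −0.0098 to 0.54, AJUBA −0.19 to 0.28 and YAP1 −0.23 to 0.44. In OVCAR4 ResB, CTGF spanned −0.39 to 0.11, AJUBA −0.36 to 0.22, YAP1 −0.095 to 0.55, WWTR1 −0.14 to 0.24, TEAD1 −0.044 to 0.61 and FAT1 −0.32 to 0.44. In PEA2, AMOTL2 spanned −0.070 to 0.22 and YAP1 −0.60 to 0.061, and in PEO6, CTGF −0.012 to 1.04 and AMOTL2 −0.40 to 0.055. Between the OVCAR4 resistant lines CYR61 spanned −0.096 to 0.065, between PEO6 and PEO4 AJUBA −0.16 to 0.030, and by line CYR61 −0.067 to 0.27 and YAP1 −0.022 to 0.26. Depth bounds the fall of FAT1 in PEA2, whose libraries held 0 counts, and gives its size only against the floor of 3 counts.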
